A study of Mus musculus with 6 samples.

Results

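Cytochrome P450 family 2 was described in the liver of male C57BL/6NJ mice given a high fat diet with sugar water (HFHS, 3 libraries) or chow (3 libraries), for 54 weeks per the series text. The members were every gene whose symbol is Cyp2 followed by a subfamily letter and a number, which gave 48 of the 24982 genes in the count tables. The labels give no transgene, drug or age, and they leave unsaid whether any tumour was sampled with the liver. PolyA RNA was sequenced from whole liver, and the libraries held 16565335 to 20585366 reads counted in genes.

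P450 enzymes are haem proteins of the endoplasmic reticulum that oxidise drugs, steroids, fatty acids and other lipophilic compounds with electrons from the reductase POR. Family 2 is the family with the most genes in the mouse, and its Cyp2a, Cyp2b, Cyp2c, Cyp2d and Cyp2j genes lie in clusters of tandem copies. Hepatocytes hold most of the family's RNA, several members are induced through the xenobiotic receptors CAR (Nr1i3) and PXR (Nr1i2), and several differ between male and female mice through the pattern of growth hormone release.

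Of the 48 members, 38 had 10 or more counts summed over the 6 libraries, and 34 had enough to be tested across all genes. Cyp2d11, Cyp2d34, Cyp2j8 and Cyp2s1 had 42, 16, 18 and 21 counts in all and were not tested. Cyp2a22, Cyp2c65, Cyp2j11 and Cyp2j13 had 8, 5, 3 and 1 counts, and Cyp2b19, Cyp2b23, Cyp2c66, Cyp2j12, Cyp2t4 and Cyp2w1 had 0. Levels are given as CPM, that is, counts set relative to the size of the library after TMM scaling, which corrects for libraries of different make-up. The largest scaled library total puts 3 counts, taken as the limit that a count of 0 allows, at 0.1155 CPM and the smallest at 0.202 CPM, which covers counting error only.

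Near-identical copies set what the counts of single genes can show, since how reads that fit several copies were counted is not given in the sources used here. Over aligned coding bases, Cyp2a4 and Cyp2a5 were 98.45% identical, with 23 differences in 1482 bases. Cyp2c40 was 98.1% identical to Cyp2c68, 97.9% to Cyp2c69 and 97.69% to Cyp2c67. Cyp2c37, Cyp2c50 and Cyp2c54 were between 95.1% and 96.12% identical, Cyp2d10 and Cyp2d11 94.71%, Cyp2c38 and Cyp2c39 94.22%, and Cyp2b9 and Cyp2b13 92.74%. Of the 50-base windows in its transcript, Cyp2c40 had 72.1% in common with another member, Cyp2c69 54.8%, Cyp2a4 36.1% and Cyp2c50 30.7%. Cyp2c23, Cyp2c55, Cyp2e1, Cyp2f2, Cyp2j9, Cyp2r1 and Cyp2u1 had 0 such windows, Cyp2c29 had 0.52%, Cyp2d22 6.14% and Cyp2b10 9.02%.

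The likeness extends to the promoters. The 250 bases before the RefSeq start of Cyp2a4 (GRCm38.p6, plus strand, chr7:26306942-26307191) and of Cyp2a5 (plus strand, chr7:26835089-26835338) are shown because these copies behaved differently between libraries. They had 4 differences in 249 aligned bases. Capitals mark those differences and the end base left unmatched because the annotated starts are offset by a base.
Cyp2a4: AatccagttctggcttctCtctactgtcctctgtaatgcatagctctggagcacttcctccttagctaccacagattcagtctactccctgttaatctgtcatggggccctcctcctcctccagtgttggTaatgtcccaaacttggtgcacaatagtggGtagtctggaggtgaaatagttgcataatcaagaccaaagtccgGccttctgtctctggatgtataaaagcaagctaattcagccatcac
Cyp2a5: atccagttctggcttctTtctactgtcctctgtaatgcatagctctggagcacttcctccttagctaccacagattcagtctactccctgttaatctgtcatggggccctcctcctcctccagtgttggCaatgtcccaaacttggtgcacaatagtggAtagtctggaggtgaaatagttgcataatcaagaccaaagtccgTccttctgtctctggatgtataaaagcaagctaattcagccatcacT

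Of the Cyp2c genes that were lower in HFHS liver, the promoters of Cyp2c29 (plus strand, chr19:39286835-39287084), Cyp2c37 (plus strand, chr19:39992174-39992423) and Cyp2c50 (plus strand, chr19:40089429-40089678) are shown as examples of called genes. Capitals mark CAAAGT, the core letters of the motif of the hepatocyte factor HNF4A, searched on both strands.
Cyp2c29: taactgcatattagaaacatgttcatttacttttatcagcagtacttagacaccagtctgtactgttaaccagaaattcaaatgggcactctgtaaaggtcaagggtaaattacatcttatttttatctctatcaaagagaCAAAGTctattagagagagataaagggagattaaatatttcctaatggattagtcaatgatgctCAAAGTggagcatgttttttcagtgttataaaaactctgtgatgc
Cyp2c37: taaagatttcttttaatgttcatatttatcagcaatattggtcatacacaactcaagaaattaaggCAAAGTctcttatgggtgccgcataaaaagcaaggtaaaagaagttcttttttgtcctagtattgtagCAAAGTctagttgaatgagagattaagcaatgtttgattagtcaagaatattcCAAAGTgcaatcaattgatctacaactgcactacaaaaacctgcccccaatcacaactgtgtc
Cyp2c50: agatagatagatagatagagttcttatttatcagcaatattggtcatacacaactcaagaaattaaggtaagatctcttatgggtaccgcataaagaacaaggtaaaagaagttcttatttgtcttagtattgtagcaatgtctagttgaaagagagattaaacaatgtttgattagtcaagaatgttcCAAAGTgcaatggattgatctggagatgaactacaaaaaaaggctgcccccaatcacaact

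The Cyp2c37 and Cyp2c50 stretches were 87.76% identical. In windows of 300 bases around the start, CAAAGT was found in 14.44% of 32544 mouse promoters and in those of 20 of the 40 members matched to a promoter. The TATA box letters TATAAA were found in 13.57% of all promoters and in those of 21 members, and the matches to the motifs overlapped in 0 member promoters. Among the 9 members lower in HFHS liver, 6 were matched to a promoter, and 4 of these held CAAAGT. Among tested Cyp2c genes matched to a promoter, 3 of 4 called genes held it, all but Cyp2c55, as did 7 of 7 genes that were not called. Tandem copies share promoter sequence, so these members are not independent examples.

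After the HFHS diet 9 Cyp2 genes fell and 0 rose (edgeR quasi-likelihood test, Benjamini-Hochberg adjusted p under 0.05 over all genes tested). The genes that fell were Cyp2b10, Cyp2c23, Cyp2c29, Cyp2c37, Cyp2c50, Cyp2c54, Cyp2c55, Cyp2d22 and Cyp2j9. In the upward direction 0 members had an unadjusted p under 0.05 in edgeR, and DESeq2 and limma-voom also called 0. The 9 are 26.5% of the 34 tested members, beside 3.61% of all 12949 tested genes called lower and 11.0% called higher. Cyp2b10 passed the filter on low counts through its chow libraries. All 3 HFHS libraries lay below all 3 chow libraries in 17 of 34 tested members (beside 18.0% of all genes), all 3 lay above in 0 members (beside 21.5%), and 17 members overlapped. The fold change was negative for 31 of 34 members, with a median log2 value of -0.64 against -0.02 over all genes, but for 25 of 34 when scaled by library size only, where Cyp2b13, Cyp2c38, Cyp2c39, Cyp2c40, Cyp2c69 and Cyp2j6 changed sign. That scaling moved the median of all genes by 0.269. On it the HFHS libraries lay below chow in 15 members and above in 1, and 18 overlapped. The matching shares over all genes were not counted on that scale.

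**Figure D1:**
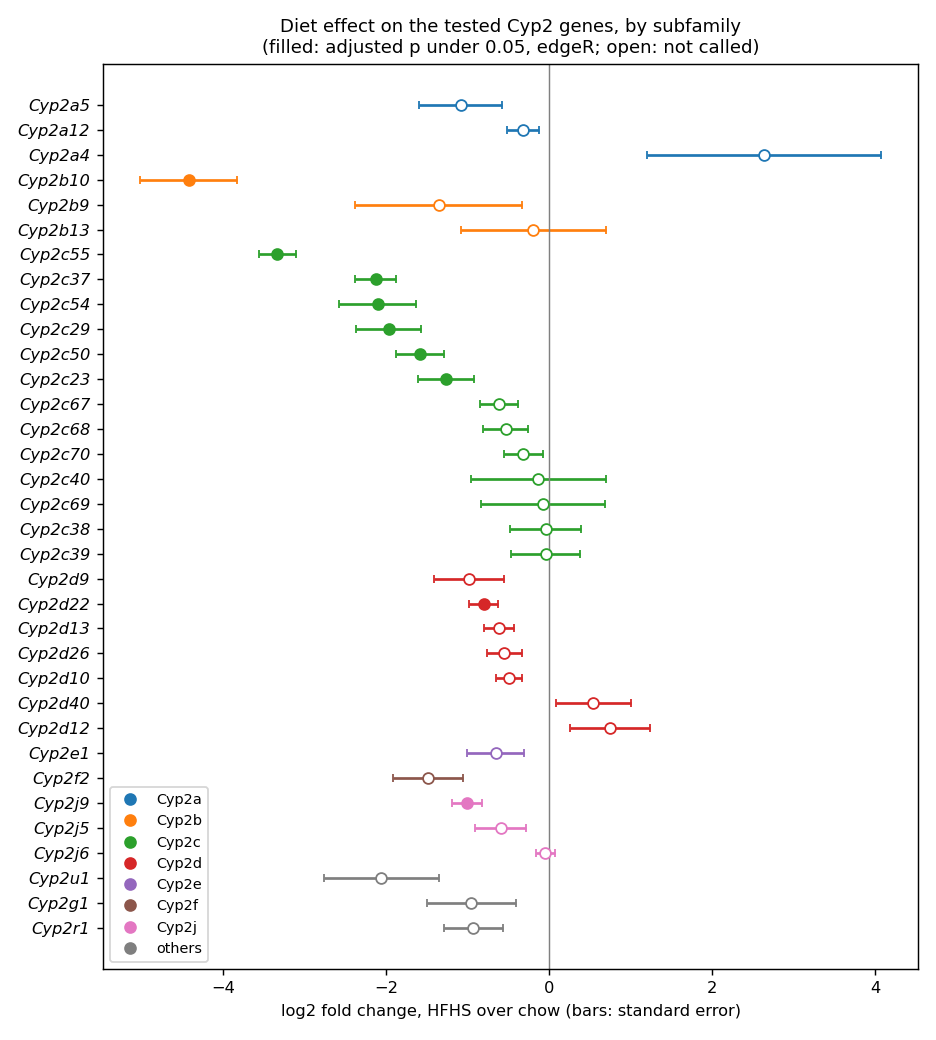
The log2 fold change of HFHS over chow (horizontal axis, bars are standard errors) is drawn for the 34 tested Cyp2 genes, coloured by subfamily, with filled points for genes called at an adjusted p under 0.05 in edgeR. Filled points lie to the left of 0, from -4.43 for Cyp2b10 to -0.81 for Cyp2d22, and Cyp2a4, Cyp2d12 and Cyp2d40 are the open points to the right of 0, to which scaling by library size only adds 6 genes now just left of it.

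The calls changed when single libraries were left out. This also leaves a smaller group, and the library itself and the smaller group cannot be told apart. Without chow replicate 3, 4 of all genes were called higher and 2 lower, against 1428 and 468 with all 6 libraries. Leaving out chow replicate 3 left Cyp2c55 alone past the threshold, with all 9 at an unadjusted p under 0.05 in edgeR. Leaving out chow replicate 1 left Cyp2b10, Cyp2c37, Cyp2c55 and Cyp2j9, and leaving out chow replicate 2 left Cyp2b10, Cyp2c37, Cyp2c50 and Cyp2c55. Cyp2c23, Cyp2c54 and Cyp2d22 lost the call without HFHS replicate 1, and Cyp2c54 without HFHS replicate 2. Across the tested members, HFHS replicate 2 was the lowest library of its diet in 22, and chow replicate 2 in 18. HFHS replicate 2 also had the lowest summed hepatocyte markers.

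Cyp2 transcripts as a whole held 1.505% ± 0.321 of gene counts in HFHS liver and 2.27% ± 0.215 in chow liver (SD, n = 3 each). Their summed level was 11344, 12353 and 17697 CPM in HFHS replicates 1, 2 and 3, and 25608, 21601 and 27532 CPM in chow replicates 1, 2 and 3. The groups did not overlap, and the log2 ratio of the means was -0.85, or -1.01 with Cyp2e1 left out. These sums describe genes grouped with earlier results known, and no test was made on them.

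By subfamily, the Cyp2c sum averaged 2195 ± 558 CPM in HFHS liver and 5736 ± 650 CPM in chow liver (SD, n = 3 each), a log2 ratio of -1.39. Cyp2f, with Cyp2f2 alone, had a ratio of -1.49, Cyp2b one of -1.32, and the remaining subfamilies together (Cyp2g, r, s, t, u and w) one of -1.22. Their order rests on single libraries: without HFHS replicate 2 Cyp2b was at -2.25, Cyp2c at -1.20 and Cyp2f at -1.14, and without chow replicate 2 Cyp2b was at -1.81, Cyp2c at -1.47 and Cyp2f at -1.29. Cyp2a, Cyp2d, Cyp2e and Cyp2j had ratios of -0.80, -0.66, -0.65 and -0.53. The HFHS sums lay below the chow sums in Cyp2c, Cyp2d, Cyp2f, Cyp2j and the remaining subfamilies, and the groups overlapped in Cyp2a, Cyp2b and Cyp2e. Sums do not depend on how reads were split among copies of a subfamily, though any reads left uncounted for fitting several copies are missing from them.

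**Figure D2:**
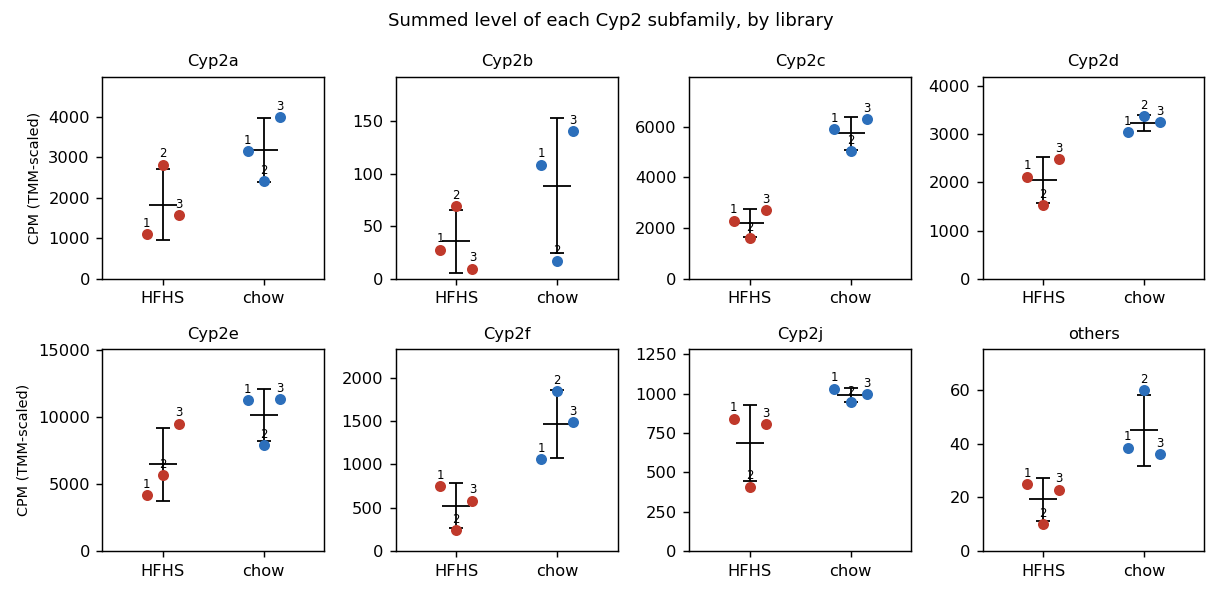
Summed CPM (TMM-scaled, vertical axis from 0) of each Cyp2 subfamily in the HFHS libraries (left of each panel) and the chow libraries (right), with the replicate number at each point and black bars for the mean and SD of 3 libraries. The Cyp2c points are widely separated, at 1599 to 2703 CPM in HFHS and 5021 to 6291 CPM in chow, while the Cyp2a, Cyp2b and Cyp2e points overlap.

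Markers of other cells moved with the diet, where edgeR called 11.0% of all tested genes higher and 3.61% lower. The 10 hepatocyte markers summed to 67824 to 114227 CPM in HFHS liver and 116438 to 136134 CPM in chow liver, with a median log2 fold change of -0.48. Of these 0 were called in edgeR and in limma-voom, 4 were lower at an unadjusted p under 0.05 in edgeR, and DESeq2 called 4 lower. Albumin, Alb, was at 71089, 24173 and 50340 CPM in HFHS and at 77965, 69128 and 89699 CPM in chow. On the log2 scale Trf and Hpx pointed upward, at 0.23 and 0.36, and the other hepatocyte markers downward. The macrophage list rose in 8 of 8 tested markers (sums of 854 to 1418 CPM in HFHS and 275 to 399 CPM in chow) and the stellate cell list in 7 of 8 (498 to 927 CPM in HFHS and 184 to 238 CPM in chow). The bile duct list rose in 5 of 7 (183 to 302 CPM in HFHS and 39.4 to 58.1 CPM in chow), the endothelial list in 4 of 6 (221 to 291 CPM in HFHS and 152 to 190 CPM in chow), and the lymphocyte list in 0 of 5 (5.27 to 10.2 CPM in HFHS and 2.49 to 4.89 CPM in chow). DESeq2 also called 0 of the lymphocyte markers, with 2 higher at an unadjusted p under 0.05 in edgeR. No marker list had a member at 0 in every chow library, and without chow replicate 3 edgeR called 0 markers, with 8, 7, 5 and 4 of the macrophage, stellate cell, bile duct and endothelial lists higher at an unadjusted p under 0.05. In whole liver, fewer hepatocytes and less Cyp2 RNA in each hepatocyte cannot be told apart. The part of cell make-up in the results of single genes was not tested.

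Set against the hepatocyte marker sum of the same library, a ratio chosen after the values were seen, the diets overlapped in some subfamilies and not in others. Alb was the largest part of that sum, at 71089 of 114227, 24173 of 67824 and 50340 of 95887 CPM in HFHS replicates 1, 2 and 3. These ratios therefore lean on 1 gene, and the low Alb of HFHS replicate 2 raises the ratios of that library. Summed Cyp2c came to 2.00%, 2.36% and 2.82% of the marker sum in HFHS replicates 1, 2 and 3, and to 4.64%, 4.31% and 4.62% in chow, with no overlap. Cyp2f2 came to 0.348% to 0.654% in HFHS and 0.831% to 1.58% in chow, also with no overlap. Cyp2a, Cyp2d, Cyp2e and Cyp2j overlapped between the diets on this scale, with log2 ratios between -0.20 and -0.11. The whole family was at 9.93%, 18.2% and 18.5% in HFHS and 20.2%, 18.55% and 20.2% in chow, with the closest libraries nearly equal.

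The Cyp2c enzymes are drug oxidases that also turn arachidonic and linoleic acid into epoxides and hydroxy acids. Of 15 members on chromosome 19, 13 were tested, 6 fell and 0 rose, beside 3.61% of all tested genes called lower and 11.0% higher. Their sizes ranged from -3.34 to -1.27 on the log2 scale, and 5 of the 7 members not called were at -0.32 to -0.04.

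Cyp2c55 (chromosome 19, 39007019 to 39042693, GRCm38), whose RNA is inducible in mouse liver by activators of CAR and PXR, had the smallest p of the family. It was at 2.27, 1.42 and 2.23 CPM in HFHS replicates 1, 2 and 3, and at 20.0, 23.0 and 16.4 CPM in chow. The libraries of each diet lay close together and the diets were far apart. The log2 fold change was -3.34 ± 0.23 (SE; adjusted p = 0.00517, edgeR), a level 10.1-fold lower in HFHS. It was the member of the 9 that passed the threshold under all 13 alternatives, at log2 fold changes of -3.46 to -3.09.

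Cyp2c29 (chromosome 19, 39269405 to 39330713), a major liver epoxygenase, was the most abundant Cyp2c gene per kilobase of exon over the 6 libraries, at 154 CPM per kb in HFHS and 603 CPM per kb in chow. Cyp2c70 was above it in HFHS liver, at 238 CPM per kb, but not in chow liver, at 296 CPM per kb. Cyp2c29 was at 554, 210 and 648 CPM in HFHS replicates 1, 2 and 3, and at 1940, 1652 and 1945 CPM in chow. The highest HFHS library held far less than the lowest chow library. Its log2 fold change was -1.97 ± 0.40 (SE; adjusted p = 0.0212, edgeR), 3.92-fold lower. HFHS replicate 2 was the low library of its diet.

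The neighbours Cyp2c37, Cyp2c54 and Cyp2c50, whose enzymes in the mouse oxidise arachidonic and linoleic acid, lie side by side between 39992424 and 40113950 on chromosome 19. Cyp2c37 was at 120, 181 and 162 CPM in HFHS and at 630, 531 and 864 CPM in chow, a log2 fold change of -2.13 ± 0.25 (SE; adjusted p = 0.00775, edgeR). Cyp2c54 was at 74.5, 53.3 and 174 CPM in HFHS and at 370, 338 and 589 CPM in chow, -2.10 ± 0.47 (adjusted p = 0.0303, edgeR), and at -2.77 without HFHS replicate 3. Cyp2c50 was at 381, 257 and 525 CPM in HFHS and at 1308, 896 and 1278 CPM in chow, -1.58 ± 0.30 (adjusted p = 0.0173, edgeR).
In each of the 3 genes every HFHS library lay below every chow library. Their sum does not depend on how reads were split among these copies. It was 642 ± 194 CPM in HFHS and 2268 ± 484 CPM in chow (SD, n = 3 each), a log2 ratio of -1.82.

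Cyp2c23 (chromosome 19, 44005022 to 44029208), an arachidonic acid epoxygenase of liver and kidney that lies apart from the other Cyp2c genes, was at 169, 96.1 and 250 CPM in HFHS and at 330, 490 and 419 CPM in chow. The diets did not overlap, and the gap between the highest HFHS and the lowest chow library was narrow. Fitted over all genes, the log2 fold change was -1.27 ± 0.34 (SE; adjusted p = 0.0482, edgeR). The call ended with limma-voom, and without HFHS replicate 1 or any chow library.

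Cyp2c70, which hydroxylates bile acids to muricholic acids in the mouse, did not pass. It was at 628, 360 and 428 CPM in HFHS and at 647, 593 and 522 CPM in chow, with HFHS replicate 1 among the chow libraries (-0.32 ± 0.23, SE; adjusted p = 0.392, edgeR). Cyp2c67, with 52.8% of its windows in common with other members, Cyp2c40 most often, was at 187, 132 and 249 CPM in HFHS and at 269, 313 and 286 CPM in chow (-0.61 ± 0.23; adjusted p = 0.114, edgeR), and passed without HFHS replicate 3. Cyp2c68 was at 94.7, 164 and 142 CPM in HFHS and at 221, 131 and 229 CPM in chow, with overlap (-0.53 ± 0.27; adjusted p = 0.225, edgeR). Cyp2c38, Cyp2c39, Cyp2c40 and Cyp2c69 had log2 fold changes between -0.13 and -0.04, with standard errors of 0.42 to 0.83. Without HFHS replicate 3 Cyp2c40 was at -1.56 and Cyp2c69 at -0.90, and without chow replicate 3 Cyp2c40 was at 0.56 and Cyp2c69 at 0.66. The 4 copies Cyp2c40, Cyp2c67, Cyp2c68 and Cyp2c69 together were at 333 ± 69.9 CPM in HFHS and 494 ± 42.3 CPM in chow (SD, n = 3 each), a log2 ratio of -0.57 with no overlap.

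**Figure D3:**
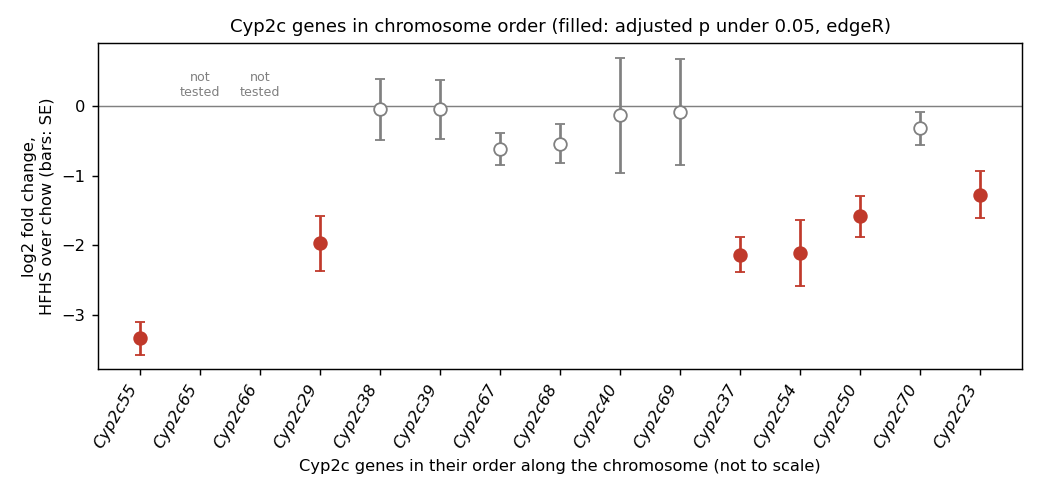
The log2 fold change of HFHS over chow (vertical axis, bars are standard errors) is drawn for the Cyp2c genes in their order along chromosome 19, not to scale, with filled points for genes called in edgeR. The called genes stand at -3.34 (Cyp2c55), -1.97 (Cyp2c29), -2.13, -2.10 and -1.58 (Cyp2c37, Cyp2c54 and Cyp2c50, side by side) and -1.27 (Cyp2c23), while the run of Cyp2c38 to Cyp2c69 between them lies from -0.61 to -0.04.

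In the Cyp2b cluster on chromosome 7, 1 of 3 tested members fell (beside 3.61% of all tested genes). Cyp2b10 (25897620 to 25926624), the standard CAR target of mouse liver, had 11, 3 and 1 reads in HFHS replicates 1, 2 and 3, and 85, 83 and 99 reads in chow, or 0.568, 0.116 and 0.0559 CPM in HFHS against 4.73, 4.56 and 6.67 CPM in chow. HFHS replicates 2 and 3 were at or under the floor of 3 counts, so the size is uncertain. On the fitted scale the log2 fold change was -4.43 ± 0.60 (SE; adjusted p = 0.0101, edgeR), and -5.78 without HFHS replicate 1. This is the fold change of a gene at a low level in both diets.

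Cyp2b9, whose enzyme is female-predominant in mouse liver, was the most abundant Cyp2b gene per kilobase. It was at 24.5, 58.7 and 6.54 CPM in HFHS and at 99.9, 11.1 and 121 CPM in chow. Chow replicate 2 lay among the HFHS libraries, and the gene did not pass (-1.36 ± 1.02, SE; adjusted p = 0.407, edgeR), with a value of -2.30 without HFHS replicate 2. Its near copy Cyp2b13 was at 2.58, 10.2 and 2.96 CPM in HFHS and at 4.06, 1.26 and 13.1 CPM in chow. Its log2 fold change was -0.20 ± 0.89 (SE), and -1.12 without HFHS replicate 2 and 0.98 without chow replicate 3. Summed, the copies were at 27.1, 68.9 and 9.50 CPM in HFHS and 104, 12.4 and 134 CPM in chow, with overlap.

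**Figure D4:**
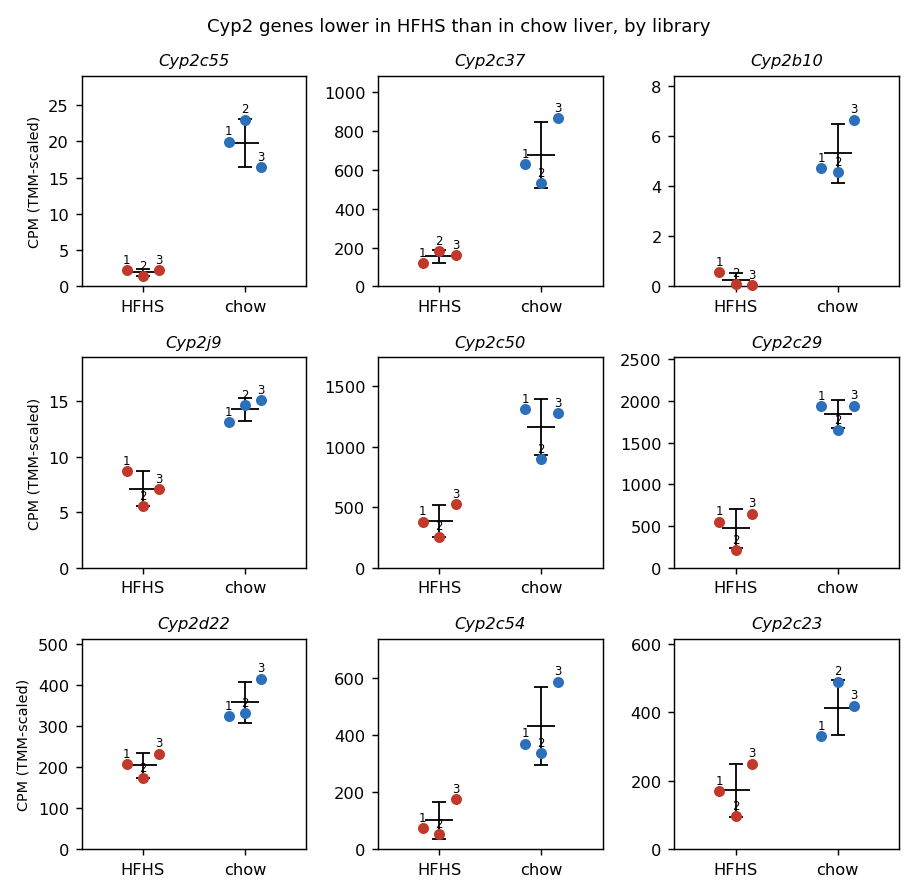
CPM (TMM-scaled, vertical axes from 0) of the 9 Cyp2 genes called lower, with the HFHS libraries left and the chow libraries right in each panel, the replicate number at each point and black bars for the mean and SD of 3 libraries. In every panel all HFHS points lie below all chow points. The gap is wide for Cyp2c55 (at most 2.27 CPM in HFHS, at least 16.4 CPM in chow) and narrow for Cyp2c23 (at most 250 CPM in HFHS, at least 330 CPM in chow).

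Of 9 Cyp2d genes on chromosome 15, 7 were tested and 1 fell (beside 3.61% of all tested genes). Cyp2d22 (82370527 to 82380260), often set beside human CYP2D6, was at 207, 172 and 232 CPM in HFHS and at 323, 331 and 415 CPM in chow. The change was modest and the spread within each diet small (-0.81 ± 0.18, SE; adjusted p = 0.0257, edgeR). Cyp2d26, the most abundant Cyp2d gene per kilobase, was at 656, 647 and 896 CPM in HFHS and at 1179, 912 and 1126 CPM in chow, and did not pass (-0.55 ± 0.21; adjusted p = 0.115, edgeR). Its groups nearly touched.

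Cyp2d9, whose enzyme hydroxylates testosterone and is male-specific in mouse liver, was at 594, 203 and 650 CPM in HFHS and at 751, 1228 and 878 CPM in chow (-0.98 ± 0.43, SE; adjusted p = 0.167, edgeR). The diets did not overlap, but the libraries of each diet were far apart. Cyp2d10 (-0.50 ± 0.16) and the transcribed pseudogene Cyp2d13 (-0.62 ± 0.18) were also separated between diets without passing. The copies Cyp2d9, Cyp2d10, Cyp2d11 and Cyp2d12 summed to 901 ± 291 CPM in HFHS and 1541 ± 278 CPM in chow (SD, n = 3 each), with no overlap.
Cyp2d40 pointed the other way, at 88.7, 27.6 and 96.5 CPM in HFHS and at 63.6, 42.9 and 39.5 CPM in chow (0.54 ± 0.46, SE; adjusted p = 0.461, edgeR). HFHS replicate 2 was below all chow libraries and replicates 1 and 3 above them. Without HFHS replicate 2 the gene was called higher, at 0.94. Cyp2d12 was at 1.34, 0.462 and 1.62 CPM in HFHS and at 0.667, 0.715 and 0.606 CPM in chow, and did not pass (0.75 ± 0.50, SE; adjusted p = 0.338, edgeR).

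Cyp2e1 (chromosome 7, 140763739 to 140774987), the pericentral enzyme that oxidises ethanol and acetaminophen, was the most abundant member per kilobase in both diets, at 2996 CPM per kb in HFHS and 4716 CPM per kb in chow. It was at 4194, 5683 and 9520 CPM in HFHS replicates 1, 2 and 3, and at 11277, 7923 and 11332 CPM in chow. HFHS replicate 3 lay above chow replicate 2. The log2 fold change was -0.65 ± 0.35 and did not pass (SE; adjusted p = 0.241, edgeR). Over all alternatives it ran from -1.05 to -0.39.

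Cyp2f2 (chromosome 7, 27119909 to 27133660), known for bioactivating naphthalene in mouse airway cells and expressed in periportal hepatocytes, was at 747, 236 and 580 CPM in HFHS and at 1056, 1842 and 1488 CPM in chow. The diets did not overlap. The log2 fold change of -1.49 ± 0.43 just missed the threshold (SE; adjusted p = 0.0575, edgeR), and passed with DESeq2 and without HFHS replicate 2.

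In the Cyp2a cluster on chromosome 7, 0 of 3 tested members passed in edgeR or DESeq2, with 0 at an unadjusted p under 0.05 in both tools and 1 lower at that level in limma-voom. Cyp2a5 (26835305 to 26843548), the mouse coumarin hydroxylase, was the most abundant per kilobase. It was at 544, 2096 and 861 CPM in HFHS and at 2451, 1683 and 3287 CPM in chow. HFHS replicate 2 lay between chow replicates 1 and 2, and the log2 fold change was -1.08 ± 0.51 (SE; adjusted p = 0.191, edgeR). Without HFHS replicate 2 it was -1.81 and passed (adjusted p = 0.0171, edgeR, in a range of 0.0171 to 0.420 over the alternatives).
Cyp2a12, which rehydroxylates secondary bile acids in the mouse, was at 547, 440 and 671 CPM in HFHS and at 666, 722 and 688 CPM in chow (-0.32 ± 0.20, SE). HFHS replicate 3 lay just above the lowest chow library.

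Among Cyp2j genes on chromosome 4, some of whose enzymes oxidise arachidonic acid, 1 of 3 tested members fell (beside 3.61% of all tested genes). Cyp2j9 (96568429 to 96591578) was at 8.68, 5.54 and 7.10 CPM in HFHS and at 13.1, 14.6 and 15.1 CPM in chow, with a clear gap between the diets. Its log2 fold change was -1.01 ± 0.19 (SE; adjusted p = 0.0164, edgeR). Cyp2j5, the main Cyp2j gene of liver and kidney, was at 727, 314 and 691 CPM in HFHS and at 915, 826 and 878 CPM in chow (-0.60 ± 0.31, SE; adjusted p = 0.231, edgeR). HFHS replicate 2 was far below the other libraries. Cyp2j6 was at 105, 88.6 and 107 CPM in HFHS and at 104, 103 and 104 CPM in chow, close to equal on this scale (-0.05 ± 0.11, SE).

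Of the remaining subfamilies 3 members were tested and 0 passed in edgeR, with 2 lower at an unadjusted p under 0.05 and the same number called by DESeq2. Cyp2r1 (chromosome 7, 114549682 to 114562972), a vitamin D hydroxylase, was the most abundant of them per kilobase. It was at 18.4, 6.24 and 14.8 CPM in HFHS and at 28.8, 24.6 and 21.3 CPM in chow, with no overlap (-0.93 ± 0.37, SE; adjusted p = 0.132, edgeR). Cyp2u1, a fatty acid hydroxylase, was at 5.73, 2.12 and 3.46 CPM in HFHS and at 5.17, 30.8 and 10.8 CPM in chow (-2.06 ± 0.70, SE; adjusted p = 0.0969, edgeR). Chow replicate 2 was the high library, and without it the value was -1.09. Cyp2g1, best known from olfactory mucosa, was at 0.878, 1.42 and 4.53 CPM in HFHS and at 4.62, 4.56 and 3.91 CPM in chow (-0.96 ± 0.55, SE), and passed without HFHS replicate 3 (-1.91).

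Some members varied widely between libraries of the same diet. Over the tested members, the highest library of a diet stood above the lowest by a median ratio of 2.46 in HFHS and 1.46 in chow. Cyp2a4 (chromosome 7, 26307169 to 26315088), a testosterone hydroxylase gene that is female-predominant in mouse liver, was at 12.2, 281 and 35.8 CPM in HFHS and at 30.8, 1.10 and 21.2 CPM in chow. HFHS replicate 2 and chow replicate 2 were the extremes, 7303 and 20 reads. Its log2 fold change of 2.64 ± 1.44 did not pass (SE; adjusted p = 0.263, edgeR). The log2 value was 0.46 without HFHS replicate 2 and 3.30 without chow replicate 1.

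By genes chosen after their values were seen, chow replicate 2 was the lowest chow library for Cyp2a4, Cyp2b9, Cyp2b13, Cyp2c38, Cyp2c39 and Cyp2c69, and the highest for Cyp2d9, Cyp2f2 and Cyp2u1. In the same library, the summed female-biased gene list, which holds no Cyp2 gene, was at 171 CPM, against 623 and 521 CPM in chow replicates 1 and 3. The male-biased list was at 9081 CPM there and at 2964 and 3762 CPM in the other 2 chow libraries. In HFHS replicate 2 the order was the other way: Cyp2a4 and Cyp2b13 were the highest and Cyp2d9 the lowest of their diet, the female-biased list was at 643 CPM (409 and 508 CPM in HFHS replicates 1 and 3) and the male-biased list at 3201 CPM (12667 and 9557 CPM). The urinary protein gene Mup20 held a large part of the male-biased sum. It was at 1357, 4547 and 1889 CPM in chow replicates 1, 2 and 3, and at 10515, 2478 and 7264 CPM in HFHS. Between diets Mup20 pointed upward and did not pass (1.38 ± 0.63, SE; adjusted p = 0.18, edgeR). The part of these differences between libraries in the Cyp2 results was not tested.

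**Figure D5:**
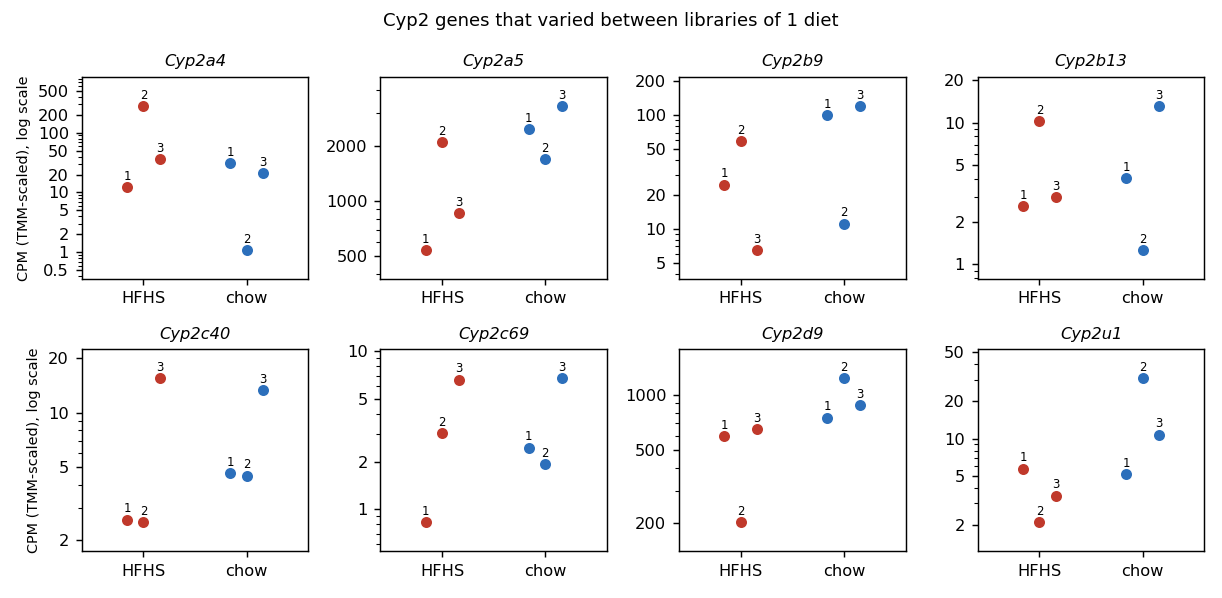
CPM (TMM-scaled, log vertical axes, each panel with its own range) of 8 Cyp2 genes chosen after their values were seen because they varied between libraries of a diet, with the HFHS libraries left and the chow libraries right and the replicate number at each point. Chow replicate 2 is low for Cyp2a4 (1.10 CPM), Cyp2b9 and Cyp2b13 and high for Cyp2d9 and Cyp2u1 (30.8 CPM), and HFHS replicate 2 is high for Cyp2a4 (281 CPM) and low for Cyp2d9 (203 CPM).

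The list of electron transfer partners, which also holds genes of haem synthesis and breakdown, had 0 of 11 members called in edgeR. Over all tested genes 11.0% were called higher and 3.61% lower. At an unadjusted p under 0.05 in edgeR, 1 member was higher, the haem oxygenase gene Hmox1. Another 4 were lower at that level, namely Pgrmc1, Fech, Fdx1 and Fdxr. The median log2 fold change was -0.48. DESeq2 called 1 higher and 3 lower. Pgrmc1, a haem-binding P450 partner, was at 975, 1101 and 1305 CPM in HFHS and at 1760, 1790 and 1895 CPM in chow (-0.69 ± 0.19, SE; adjusted p = 0.0506, edgeR). Ferrochelatase Fech, the last enzyme of haem synthesis, was at 151, 138 and 186 CPM in HFHS and at 209, 240 and 222 CPM in chow (-0.50 ± 0.15; adjusted p = 0.0676, edgeR). Both were separated between diets. Por, the reductase, overlapped, at 455, 602 and 819 CPM in HFHS and at 1028, 336 and 1162 CPM in chow, with chow replicate 2 the lowest of all.

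Nuclear receptors and liver transcription factors had 2 of 29 tested members lower, beside 3.61% of all tested genes, with a median of -0.41. They were Nr5a2, the bile acid regulator LRH-1 (-0.42 ± 0.10, SE; adjusted p = 0.0348, edgeR), and Stat5b, the mediator of growth hormone signals (-0.41 ± 0.11; adjusted p = 0.0474, edgeR). Nr1i3, which encodes CAR, was at 99.8, 199 and 159 CPM in HFHS and at 295, 205 and 366 CPM in chow. It did not overlap, though HFHS replicate 2 and chow replicate 2 nearly met (-0.92 ± 0.30, SE; adjusted p = 0.0799, edgeR). Nr1i2, which encodes PXR, overlapped, at 74.2, 90.0 and 110 CPM in HFHS and at 127, 70.4 and 156 CPM in chow (adjusted p = 0.430, edgeR).

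Targets of the xenobiotic receptors outside family 2 had 5 of 22 members lower and 1 higher, with a median of -0.26. Of all tested genes 3.61% were called lower and 11.0% higher. The carboxylesterases Ces2c and Ces2a, which hydrolyse ester drugs and lipids, fell by 1.17 and 2.38 on the log2 scale. Ces2a was at 115, 62.4 and 136 CPM in HFHS and at 490, 608 and 534 CPM in chow. Other P450 families had 5 of 28 tested members lower and 2 higher, with a median of -0.47. Cyp3a11, the main mouse Cyp3a drug oxidase, was at 1694, 1689 and 1243 CPM in HFHS and at 5220, 6024 and 5258 CPM in chow (-1.84 ± 0.23, SE; adjusted p = 0.00867, edgeR), and Cyp3a59 also fell by 1.84.

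Liver zones were read from genes outside the P450 families. The pericentral list, the zone of Cyp2e1, had 1 of 17 tested members higher and 0 lower, with a median of -0.31. Of all tested genes 11.0% were called higher and 3.61% lower. Tnfrsf19, a pericentral receptor gene, rose (0.95 ± 0.18, SE; adjusted p = 0.0184, edgeR), and glutamine synthetase Glul was at 0.63 and did not pass. Both are named for the smallest p of their list and do not stand for it, since most of its tested members pointed downward. The periportal list, the zone of Cyp2f2, had 6 of 19 members lower (beside 3.61% of all tested genes) and 0 higher, with a median of -1.01. Histidine ammonia-lyase Hal was at -1.91 and Etnppl at -3.43, both past the threshold. The call counts of both zones were not compared by a test.

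Sex-biased liver genes outside family 2 had 3 of 16 tested male-biased members lower and 0 higher, with a median of -0.58. Of 18 female-biased members 1 was higher and 0 lower, with a median of 0.54. These counts stand beside 11.0% of all tested genes called higher and 3.61% called lower. Susd4 and the urinary protein gene Mup12, both male-biased, were at -3.40 and -5.18 and passed. Mup12 belongs to a family of near-identical copies, so its share of reads is uncertain. Ntrk2, a female-biased receptor kinase gene, rose (2.10 ± 0.46, SE; adjusted p = 0.0308, edgeR), and Vldlr was at 0.92 and did not pass. DESeq2 called 0 pericentral genes lower, 0 periportal genes higher, 0 male-biased genes higher and 1 female-biased gene lower, and at an unadjusted p under 0.05 edgeR had 1, 0, 1 and 1 members in these directions. Without chow replicate 3 edgeR called 0 members of the 8 lists outside family 2 in either direction, with 10 higher and 33 lower at an unadjusted p under 0.05.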

How the data were processed

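Per the labels' protocols, polyA RNA was isolated from frozen, homogenised liver, and a dUTP-based kit that keeps the strand was used for the libraries. Alignment was with STAR to mm10, per the submitters' processing notes. What program, annotation and strand setting the counting used, and how it treated reads fitting several genes, is not given in the sources used here. Deposited values are raw counts of reads per gene symbol, 1 table per library, with no normalisation. Rows for reads outside genes (7.74% to 10.6% of each table) and for ambiguous reads (0.614% to 0.862%) were left out. File names follow a different pattern in each diet, and the labels name no batch. Whether handling differed between the diets is not stated, and any such difference cannot be told apart from diet. The labels do not say that each sample is a separate animal, so p-values reflect the spread between samples, which may be technical. Libraries within a diet differed by more than sampling noise.

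The default filterByExpr filter of edgeR was applied, libraries were scaled by TMM and diet alone was tested with the robust quasi-likelihood F test (edgeR 4.0.16, limma 3.58.1, R 4.3.3), with Benjamini-Hochberg adjustment over 12949 genes, which every adjusted p here uses. DESeq2 1.42.0, limma-voom, other scalings and filters, a replicate block and leaving out each library were alternatives. The standard error is the log2 fold change divided by the square root of F. The recovery of changed genes by the edgeR, DESeq2 and limma-voom fits was tested on simulated counts, and the other steps were not. Levels per kilobase use the exon union of GENCODE M21 (GRCm38, the assembly of mm10), which also gave spans and coding sequences. Promoters are from RefSeq, GRCm38.p6. Cyp2d13 has no GENCODE entry and no exon length here. Library-level values are given for every called member and for the most abundant member per kilobase of each subfamily, and for further members chosen after their values were seen. Of each list of other genes the 2 with the smallest p are named, plus Por, Nr1i2 and Nr1i3. The members and lists, drawn from general knowledge of mouse liver, were chosen with earlier results of these data known, so no list was tested as a set.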

Additional observations from a re-analysis of the deposited data

How the results depend on the processing

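Of 442 values of the 34 tested members under 13 alternatives, 379 kept their direction and side of the threshold, 24 lost the call, 12 gained one and 27 changed sign, the sign changes all in 6 members that were not called. With library size only, Cyp2b13 was at 0.17, Cyp2c38 at 0.27, Cyp2c39 at 0.25, Cyp2c40 at 0.080, Cyp2c69 at 0.18 and Cyp2j6 at 0.21. With limma-voom, Cyp2b13 was at 0.26, Cyp2c38 at 0.037 and Cyp2c39 at 0.082, and with the replicate block Cyp2c38 was at 0.038 and Cyp2c39 at 0.031. Leaving out each library gave -1.12 to 0.98 for Cyp2b13, -0.41 to 0.29 for Cyp2c38, -0.40 to 0.24 for Cyp2c39, -1.56 to 0.56 for Cyp2c40, -0.90 to 0.66 for Cyp2c69 and -0.10 to 0.042 for Cyp2j6. The 9 lower members were the same 9 with RLE scaling, library size only, 10 or more summed counts and no filter. DESeq2 called 16 lower, these 9 with Cyp2c67, Cyp2d10, Cyp2d13, Cyp2d26, Cyp2f2, Cyp2r1 and Cyp2u1. Leaving out each library in turn gave 1 to 11 lower and 0 to 1 higher. Replicate numbers did not pair the samples (correlations of deviations -0.253, -0.166 and 0.0292); with the replicate block 8 members were lower, without Cyp2c23, and over all genes 961 were higher and 282 lower. The cause of lost calls was not tested. Where 1 library was left out, the smaller group and the library itself cannot be told apart. The log2 ratio of no subfamily sum moved by more than its SD between replicates, but that SD is wide for Cyp2b, whose ratio ran from -2.25 without HFHS replicate 2 to -0.83 without chow replicate 3. Depth limits members under the floor of 3 counts and the size of the Cyp2b10 change.

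Over all genes, leaving out each library gave 4 to 1664 higher and 2 to 772 lower, library size only gave 200 lower and DESeq2 974 lower. Further counts of called list members follow, and the cause of each shift was not tested. With DESeq2, 1 electron transfer partner was higher and 3 lower, 9 nuclear receptors and liver factors lower, 10 other P450 genes lower, 2 pericentral genes higher, 10 periportal genes lower, and 4 female-biased genes higher and 1 lower. With library size only, 0 nuclear receptors and liver factors and 3 xenobiotic targets were lower, and 2 pericentral and 4 female-biased genes higher. RLE scaling gave 1 electron transfer partner lower, limma-voom 1 nuclear receptor or liver factor lower, and no filter 1 male-biased gene lower and 0 female-biased genes higher. With the replicate block, 0 nuclear receptors and liver factors, 3 xenobiotic targets, 1 pericentral gene and 0 male-biased genes were lower, and 0 xenobiotic targets higher. Leaving out each library gave 0 to 3 electron transfer partners lower, 0 to 2 nuclear receptors and liver factors lower, 0 to 1 xenobiotic targets higher and 0 to 6 lower, 0 to 4 other P450 genes higher and 0 to 7 lower, 0 to 1 pericentral genes higher and 0 to 1 lower, 0 to 7 periportal genes lower, 0 to 1 male-biased genes higher and 0 to 2 lower, and 0 to 2 female-biased genes higher.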
